A study of Mus musculus with 2 samples.

Results

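Resting astrocytes depend on a set of genes for their function and identity, and 9 of them are described here: Aqp4, Slc7a10, Aldh1l1, Acsbg1, Slc4a4, Mlc1, Sox9, Gpr37l1 and Ntsr2. They were taken from the deposited array table by gene symbol, by a rule that keeps the brightest probe set where a gene has several. All 9 were found, each with 1 probe set, among 30920 genes in all. The arrays came from samples of male C57BL/6 mice, 1 labelled control and 1 labelled cuprizone. Cuprizone binds copper, is toxic to oligodendrocytes and is fed to mice to model the loss of myelin. The diet is described as 0.2% cuprizone for 6 weeks in a sentence attached to both samples, so the group of each array rests on its treatment label. The title of the cuprizone sample also carries a numbered tag that the sources used here do not explain. The sources used here give neither the age of the mice nor whether animals were pooled. The tissue label is cerebellum, while the source name says only brain.

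Astrocytes are the glial cells that wrap synapses and blood vessels. They clear potassium and transmitters, buffer pH, move water across the vessel wall and supply neurons with metabolites. When tissue is injured they become reactive, a state known for high levels of the intermediate filament genes Gfap and Vim and, for some genes of normal function, lower levels.

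Each group had 1 array, read as log2 RMA expression (a background-corrected, normalized and summarised probe signal) for 41345 probe sets. Without replicates no error or test can be given, and each value describes this pair of arrays alone, so precision is limited by the number of arrays. In whole tissue, fewer cells of a type and less RNA per cell cannot be told apart. A technical yardstick came from 120 genes with 2 measured probe sets that are not marked as cross-hybridising. The difference between cuprizone and control, read from one probe set and from the other, disagreed by a median of 0.19 on the log2 scale and by up to 0.55 for 95% of these genes. This spread covers probes and transcript forms on the same arrays and leaves out the spread between animals.

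Detection of the genes and the tissue label were checked first. All 9 genes lay above the background bound on both arrays, a level under which lie nearly all of 1469 olfactory and vomeronasal receptor genes, barely transcribed in brain. The bound, the top of their central 95%, was 4.68 for control and 4.70 for cuprizone. Of 45 other general astrocyte genes, 44 lay above it on both arrays. The cerebellum label had less backing: Gabra6, a granule cell receptor subunit, was at 1.84 and 1.97, and Pcp2, a Purkinje cell gene, at 3.18 and 3.69, all within the background. Gdf10, a marker of Bergmann glia, the astrocytes of the cerebellar cortex, was at 4.63 and 4.72, beside the bound. Of 12 cerebellar genes 5 lay above the bound on both arrays, whereas of 12 forebrain genes 11 did. The arrays are therefore called by their treatment labels, and the 9 genes are read as brain astrocyte genes of an uncertain region.

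Most of the 9 astrocyte genes had nearly the same level on both arrays, and a pair stood apart on the low side. Slc7a10 and Acsbg1 were lower on the cuprizone array, Gpr37l1 was somewhat higher, and the other 6 differed by at most 0.15 on the log2 scale, less than the median disagreement between probe sets of 1 gene. Such small differences were common on these arrays. Of measured genes, 50.1% had a larger absolute difference than Sox9, the largest of the 6, and the remainder were as close to level. The median difference of the 9 was 0.06, against -0.01 over 16559 measured genes. Measured genes are those that reached 4.34, the median of all values, on at least 1 array, and all 9 passed this on each array alone. Of the 9, 3 were lower and 6 higher by any amount, where 51.6% of measured genes were lower and 45.3% higher. Lower by at least 20% were 2 of 9, where 8.26% of measured genes were, and higher by at least 25%, the same step on the log2 scale, were 0, where 7.83% were. None differed by 1.5-fold, a size reached by 2.95% of measured genes, 1.35% on the lower side and 1.6% on the higher side. None differed by 2-fold either, as 0.127% of measured genes did on the lower side and 0.223% on the higher. The summed linear signal of the 9 genes was 1880 in the control and 1955 in the cuprizone sample, a gain of 4%.

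**Figure D1:**
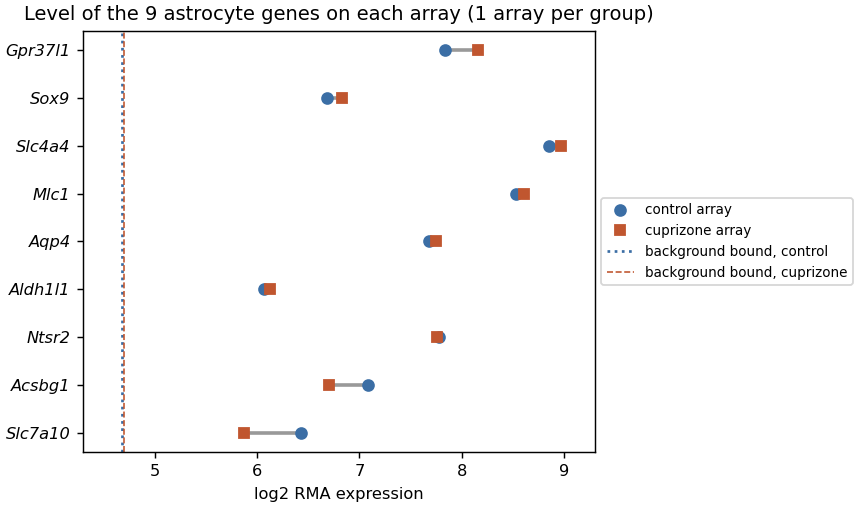
Log2 RMA expression of each astrocyte gene in the control (circles) and the cuprizone sample (squares), 1 array per group, with the background bound of each array as a vertical line at 4.68 and 4.70. Slc7a10 and Acsbg1 lie further left on the cuprizone array, Gpr37l1 further right, and the markers of the other 6 genes nearly touch.

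The promoter sequences of the pair of lower genes, of the gene with the highest difference and of the gene nearest to no difference are shown. They set the genes with the larger differences on this pair of arrays beside one with almost none. Each is the 250 bases before the RefSeq start, 5′ to 3′ on the gene's strand, from assembly GRCm38.p6, and 7 of the 9 genes had an entry, all but Aqp4 and Sox9. Capitals mark matches, on either strand, to 3 short motifs: TTGGC, the repeated unit of sites for nuclear factor I, which drives astrocyte genes; ACAANG, a SOX core, the family of Sox9; and TTCNNNGAA, the STAT site, through which cytokines act in reactive astrocytes.
Slc7a10, chr7:35186135-35186384, + strand: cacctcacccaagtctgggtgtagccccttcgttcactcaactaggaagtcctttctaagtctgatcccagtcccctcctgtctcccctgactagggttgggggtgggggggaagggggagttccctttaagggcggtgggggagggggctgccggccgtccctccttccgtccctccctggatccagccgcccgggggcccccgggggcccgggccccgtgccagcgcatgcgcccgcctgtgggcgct
Acsbg1, chr9:54661886-54662135, - strand: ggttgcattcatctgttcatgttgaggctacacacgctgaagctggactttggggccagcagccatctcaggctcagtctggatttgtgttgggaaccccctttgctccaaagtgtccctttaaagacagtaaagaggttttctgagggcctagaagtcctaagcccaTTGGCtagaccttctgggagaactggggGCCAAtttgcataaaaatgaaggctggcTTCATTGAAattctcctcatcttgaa
Gpr37l1, chr1:135167682-135167931, - strand: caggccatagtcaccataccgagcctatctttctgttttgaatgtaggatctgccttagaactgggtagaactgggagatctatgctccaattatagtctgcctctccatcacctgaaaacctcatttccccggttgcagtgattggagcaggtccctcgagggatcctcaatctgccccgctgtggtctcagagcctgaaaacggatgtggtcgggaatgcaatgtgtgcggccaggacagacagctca
Ntsr2, chr12:16653220-16653469, + strand: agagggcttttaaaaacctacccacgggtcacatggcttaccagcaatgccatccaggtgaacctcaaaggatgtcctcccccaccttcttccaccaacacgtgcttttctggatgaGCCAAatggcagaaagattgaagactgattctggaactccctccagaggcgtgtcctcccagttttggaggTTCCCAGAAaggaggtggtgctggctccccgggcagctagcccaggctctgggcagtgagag
The window of Acsbg1 held 2 nuclear factor I units, at 82 to 78 and 54 to 50 bases before the start, and 1 STAT match at 26 to 18 bases. That of Ntsr2 held 1 such unit, at 133 to 129 bases, and 1 STAT match at 62 to 54 bases. The windows of Slc7a10 and Gpr37l1 held none of the 3 motifs, and no base lay in more than 1 match. The lower genes were also unlike each other in base composition: the window of Slc7a10 was 69.6% G or C with 14 CG pairs, and that of Acsbg1 48.4% with 1 CG pair. Over the 7 genes, 4 had a nuclear factor I unit, 2 a STAT match and 0 a SOX match. Among all 32851 windows of this length, 41.5% held that unit, 7.02% the STAT motif and 36.3% the SOX core. A match is a run of letters and shows no binding. The factors themselves differed little between the arrays for nuclear factor I (Nfia 0.10, Nfib 0.11, Nfic -0.14 and Nfix -0.13, as log2 differences), while Stat3 was at 6.09 and 6.65.

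Slc7a10 had the most negative difference of the 9 genes. It encodes Asc-1, a transporter of small neutral amino acids that exchanges glycine and serine, D-serine included, and so bears on the co-agonists of NMDA receptors. Its probe set of 26 probes, placed by the array annotation on the plus strand of chromosome 7 from 35186385 to 35204898, read 6.42 in the control and 5.87 in the cuprizone sample. The cuprizone level was the lower of the pair by 0.55 on the log2 scale, which is 1.46-fold, about the size that 95% of the paired probe sets stayed within. Among measured genes 1.73% had a more negative difference. Among the 4435 measured genes whose mean level lay within 0.5 of that of Slc7a10, 0.767% did.

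The relatives of Slc7a10 were mostly on the other side. Light chains of the Slc7 family pair with a heavy chain, Slc3a2 or Slc3a1, and Asc-1 uses the former. Of 13 measured genes for these transporters and for serine metabolism, 12 were higher and 1 lower, with a median difference of 0.34. Higher by at least 25% were 7, where 7.83% of measured genes were. Slc3a2, the heavy chain, read 7.27 and 7.82, so heavy chain and Slc7a10 differed in opposite directions and their ratio shifted by 1.10 on the log2 scale, whatever constant scales the arrays. Slc7a11, the light chain that imports cystine, read 6.38 and 7.47, and Slc7a5, a light chain for large neutral amino acids, 7.05 and 7.98. Slc7a7, a light chain for cationic amino acids, was within the background on the control array and is higher by at least 0.33. Another of the 7, Slc1a5, was within the background on both arrays and counted as measured through the cuprizone array alone.

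Genes of serine supply did not share one direction. Srr, the racemase that makes D-serine, was level at 7.08 and 7.09. Slc1a4, a serine exchanger of astrocytes, read 6.54 and 6.88, and Psat1, an enzyme of serine synthesis, 5.76 and 6.07. Phgdh, the first enzyme of serine synthesis, was the 1 lower gene, at 5.01 on the control array and within the background on the cuprizone array, a decrease of at least 0.31 on the log2 scale. Shmt2, the mitochondrial enzyme that turns serine into glycine, read 5.31 and 5.66. 

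Acsbg1 had the second most negative difference. It encodes an acyl-CoA synthetase that activates long-chain fatty acids. Its probe set of 35 probes, on the minus strand of chromosome 9 from 54604877 to 54661885, read 7.08 in the control and 6.70 in the cuprizone sample, a difference of -0.38 or 1.30-fold. Among measured genes 5.45% had a more negative difference, and among 2561 of similar level 2.85% did.

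Here the relatives lay on the same side. Of 11 measured acyl-CoA synthetase genes other than Acsbg1, 10 were lower and 1 higher, with a median difference of -0.09, and 3 were lower by at least 20%, where 8.26% of measured genes were. Acsl5, a long-chain synthetase, read 5.67 and 5.21, and Acss2, which activates acetate in the cytosol, 6.39 and 5.97. The third, Slc27a3, was within the background on both arrays. Smaller differences were those of Acsl4, which prefers arachidonic acid (-0.20), Acsl6, which activates docosahexaenoic acid (-0.09), and Slc27a1, a fatty acid transport protein (-0.04). Myelin genes, which depend on fatty acid and sterol supply, were lower by more: of 15 measured genes 14 were lower, with a median of -0.91, and their summed signal went from 3941 to 2048. Their part in the Acsbg1 difference was not tested.

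Gpr37l1 had the highest difference of the 9. It encodes an orphan receptor of astrocytes for which prosaposin has been proposed as a ligand. Its 24 probes, on the minus strand of chromosome 1 from 135160234 to 135167681, read 7.84 in the control and 8.16 in the cuprizone sample. The level was higher by 0.32 on the log2 scale, 1.245-fold, just under the 25% line. Among measured genes 8.14% had a larger positive difference, and among 750 of similar level 2.53% did.

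Its closest relative, Gpr37, differed the other way. Gpr37, which oligodendrocytes express, read 6.84 and 6.29, and the ratio of Gpr37l1 to Gpr37 shifted by 0.87 on the log2 scale. Psap, which encodes prosaposin, was level at 9.22 and 9.18. The shift in this receptor ratio accompanied the lower myelin genes given above, and their part in it was not tested.

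Ntsr2, the low-affinity neurotensin receptor that astrocytes carry, was the member nearest to no difference. Its 23 probes, on the plus strand of chromosome 12 from 16653470 to 16660236, read 7.78 and 7.76, a difference of -0.02. Ntsr1, the high-affinity receptor of neurons, read 5.17 and 5.07, and Sort1, a sorting receptor that also binds neurotensin, 8.93 and 8.79. The gene of the ligand, Nts, was within the background on both arrays. Of the 6 measured relatives of these receptors, the endothelin receptor genes included, 5 were lower and 1 higher, with a median of -0.12. Ednrb, the endothelin receptor of astrocytes, was the higher one, at 7.09 and 7.26, while Ednra, which vessels carry, read 5.50 and 5.23.

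Aqp4 and Mlc1 belong to the astrocyte endfoot on blood vessels, and both were almost level. Aqp4, the water channel of the endfoot, read 7.68 in the control and 7.75 in the cuprizone sample, a difference of 0.06. Its 25 probes lie on the minus strand of chromosome 18 from 15389394 to 15403684. Mlc1, a membrane protein of astrocyte junctions named for the leukodystrophy its loss causes, read 8.54 and 8.61, a difference of 0.08, from 24 probes on the minus strand of chromosome 15 from 88955884 to 88979007.

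The proteins that anchor them were as close to level. Of 15 measured endfoot and MLC1 partner genes, 5 were lower and 10 higher, with a median of 0.02 and values from -0.19 to 0.19, so that 0 were 25% higher or 20% lower, a size that 16.1% of measured genes reached in one direction or the other. Hepacam, the adhesion molecule that brings Mlc1 to junctions, read 6.73 and 6.86, and Kcnj10, the potassium channel of the endfoot, 7.87 and 7.89. Dmd, whose short product anchors the complex, differed by 0.10, Dtna by 0.04, Dag1 by -0.14 and Clcn2, a chloride channel partner, by -0.01. Utrn (-0.19) and Sntb1 (0.19) marked the ends of the range. Of 11 other aquaporins 3 lay above the background on both arrays. Aqp11, an intracellular channel, was level at 6.10 and 6.12, Aqp5 read 4.95 and 5.34, and Aqp1, the channel of the choroid plexus, 4.88 and 4.90.

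Most genes of the vessel wall list were lower. Of 15 measured endothelial and mural genes 13 were lower and 2 higher, with a median of -0.28, and 5 were lower by at least 20%, where 8.26% of measured genes were. Within the range of the endfoot list lay 6 of the 15, such as the transporter genes Slco1a4 (-0.07) and Slc2a1 (-0.04), and 9 lay below it. The summed signal of all 16 listed vessel wall genes went from 1772 to 1588. Cldn5, a tight junction protein, read 5.78 and 5.19, and Cdh5, the endothelial cadherin, 6.90 and 6.45. Their part in the values of Aqp4 and Mlc1 was not tested.

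Slc4a4 encodes the sodium bicarbonate cotransporter through which astrocytes take up and release bicarbonate. Its 28 probes, on the plus strand of chromosome 5 from 88886818 to 89239656, read 8.85 in the control and 8.97 in the cuprizone sample, a difference of 0.12. Of 20 measured bicarbonate transporter and carbonic anhydrase genes, 12 were lower and 7 higher, with a median of -0.02. Car2, the carbonic anhydrase of oligodendrocytes and some astrocytes, read 7.38 and 6.85, so that Slc4a4 over Car2 shifted by 0.65 on the log2 scale. Car14, a membrane-bound form, read 5.21 and 4.77. The neuronal cotransporter Slc4a10 was level, with a difference of -0.01.

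Aldh1l1, a folate enzyme widely used as a pan-astrocyte marker, was almost level. It oxidises formyl-tetrahydrofolate to tetrahydrofolate and carbon dioxide. Its 14 probes, the smallest number among the 9, lie on the plus strand of chromosome 6 from 90486427 to 90600203 and read 6.07 and 6.12, a difference of 0.06. Of 23 measured one-carbon folate genes 12 were lower and 9 higher, with a median of -0.03, and 4 were higher by at least 25% and 1 lower by at least 20%, where 7.83% and 8.26% of measured genes were. Aldh1l2, the mitochondrial paralog, was within the background on the control array and higher by at least 0.39. Mthfd2l, a mitochondrial dehydrogenase, read 5.46 and 4.93. Mthfd2, its inducible relative, and Fpgs, which adds glutamates to folate, were among the 4 but lay within the background on both arrays and counted as measured through the cuprizone array alone.

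Sox9, the transcription factor that sets astrocyte fate, was slightly higher on the cuprizone array. Its 19 probes, on the plus strand of chromosome 11 from 112782210 to 112787760, read 6.69 and 6.83, a difference of 0.14. Sox8, of the same SoxE subfamily and also present in oligodendrocytes, read 6.07 and 5.73, and the ratio of Sox9 to Sox8 shifted by 0.49 on the log2 scale. Sox10, the SoxE factor of oligodendrocytes, was at 5.04 and 4.92. Of 26 measured glial transcription factor genes 17 were lower and 8 higher, with a median of -0.07. Lower by at least 20% were 5, where 8.26% of measured genes were, and higher by at least 25% were 3, where 7.83% were. Among the 5, Rbpj was within the background on both arrays and counted as measured through the control array alone. Lhx2, a forebrain patterning factor, read 6.50 and 5.98. Atf3, a stress factor, and Hes1, a Notch target, were within the background on the control array and higher by at least 0.35 and at least 0.43.

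**Figure D2:**
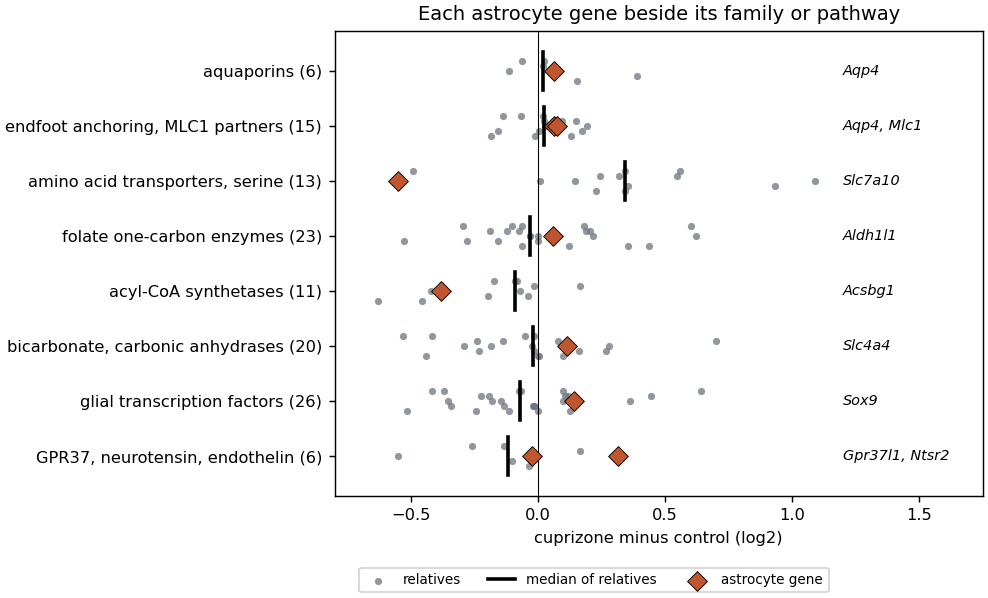
Log2 difference, cuprizone minus control, of each astrocyte gene (diamond) beside the measured genes of its family or pathway (dots, number in brackets, median as a bar). Slc7a10 lies left of a family that is mostly right of 0, Acsbg1 lies left in a family that is mostly left of 0, and Aqp4 and Mlc1 lie in the narrow endfoot list from -0.19 to 0.19.

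Probe sets with brighter signals scattered less, so the other 6 genes were also set beside measured genes whose mean level lay within 0.5 of their own. A higher difference than that of Sox9 was found in 13.9% of 2876 such genes, and than that of Slc4a4 in 12.8% of 242. For Mlc1 the share was 21.7% of 364, for Aqp4 25% of 1037 and for Aldh1l1 30.3% of 4551. Ntsr2 lay near the middle, with a higher difference in 48.1% of 985. The differences of Slc7a10, Acsbg1 and Gpr37l1 thus lay toward the ends of the distribution at their level, those of Sox9 and Slc4a4 less so. Of the 9 differences, 8 lay within the central 95% of measured genes, from -0.49 to 0.50, and Slc7a10 lay outside. Those of Acsbg1 and Gpr37l1 were also smaller than the disagreement of 0.55 that 95% of the paired probe sets stayed within. The values between Gpr37l1 and Slc7a10 spanned 0.87 on the log2 scale, which no constant scaling changes.

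**Figure D3:**
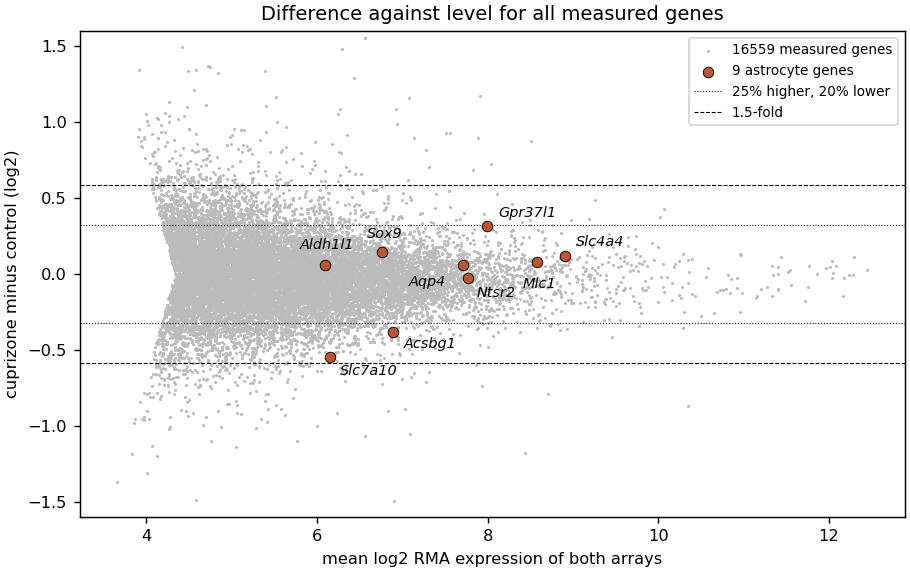
Log2 difference, cuprizone minus control, against the mean log2 RMA expression of both arrays for 16559 measured genes (grey) and the 9 astrocyte genes (red), with dotted lines at 25% higher and 20% lower and dashed lines at 1.5-fold. Slc7a10 and Acsbg1 lie at the lower edge of the cloud at their level and Gpr37l1 at its upper edge; 8 measured genes fall outside the plotted range of differences.

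Several annotated properties of the 9 genes played no part in choosing them. They lie on 9 different chromosomes. Each is read by a single probe set of 14 to 35 probes, as most genes are, since only 657 of 30920 genes have several. None of these probe sets is marked as cross-hybridising. The array annotation, whose membrane share over all genes is not given here, lists 6 of them as parts of a membrane: Aqp4, Slc7a10, Slc4a4, Mlc1, Gpr37l1 and Ntsr2. Among these 6 the differences ran from -0.55 to 0.32, so membrane genes held both ends of the range. The others are the enzymes Aldh1l1 and Acsbg1 and the nuclear factor Sox9. The sources used here name no build or release for the array annotation, and the coordinates above are the annotation's own. The interval of each of the 9 overlaps its gene in the RefSeq table for GRCm38.p6.

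Set beside other astrocyte genes, the 9 lay by their median slightly above the general list and below the reactive list. The means of the 9 and of the general list lay closer together, at -0.02 and -0.07. The 45 measured general astrocyte genes, 4 of which the endfoot list also holds, had a median of -0.12, with 27 lower and 17 higher. Lower by at least 20% were 5, where 8.26% of measured genes were, and higher by at least 25% were 3, where 7.83% were. Of the 45 genes 41 lay between Slc7a10 and Gpr37l1 on the difference scale, 1 lay at or below Slc7a10 and 3 at or above Gpr37l1. The 1 was Dio2, the enzyme that activates thyroid hormone, at 7.13 and 6.40. The 3 were Slc14a1, a urea transporter, at 5.41 and 6.21, Tril, a Toll-like receptor accessory protein, at 5.72 and 6.15, and F3, tissue factor, at 6.09 and 6.46, the last of which was named after its values were seen.

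Genes of glutamate handling by astrocytes lay on both sides. Slc1a2, the main glutamate transporter of forebrain astrocytes, read 8.59 and 8.40, whereas Slc1a3, the transporter richest in Bergmann glia, read 8.50 and 8.78, so their ratio shifted by 0.48 on the log2 scale. Glul, glutamine synthetase, read 10.46 and 10.10. Gja1, the main astrocyte gap junction protein, read 7.53 and 7.71. Fgfr3 (-0.43), Slc25a18, a mitochondrial glutamate carrier (-0.42), and Mfge8 (-0.40), an opsonin, were next to Dio2 at the low end.

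Genes of reactive astrocytes differed by more than the 9. Of 23 measured reactive astrocyte genes 3 were lower and 20 higher, with a median of 0.37. Higher by at least 25% were 13, where 7.83% of measured genes were. A gene can enter the measured set through the cuprizone array alone, as Lcn2, H2-D1, Ggta1, Gbp2 and Nes of the 13 did. Such entries raise the counts of higher genes. Over the 14 reactive genes above the background on both arrays the median was also 0.37. Gfap read 7.33 and 8.50 and Vim 7.09 and 8.02. The difference of Gfap exceeded the median of the 9 by 1.11 on the log2 scale, a contrast that no constant scaling changes, and it exceeded that of Aldh1l1 and of Aqp4 by 1.11 each. Serpina3n and Osmr were the other large values, with log2 differences of 3.06 and 1.17, and Ggta1, within the background on the control array, was higher by at least 0.31. With no test possible, the contrast between both lists is a description of this pair of arrays.

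**Figure D4:**
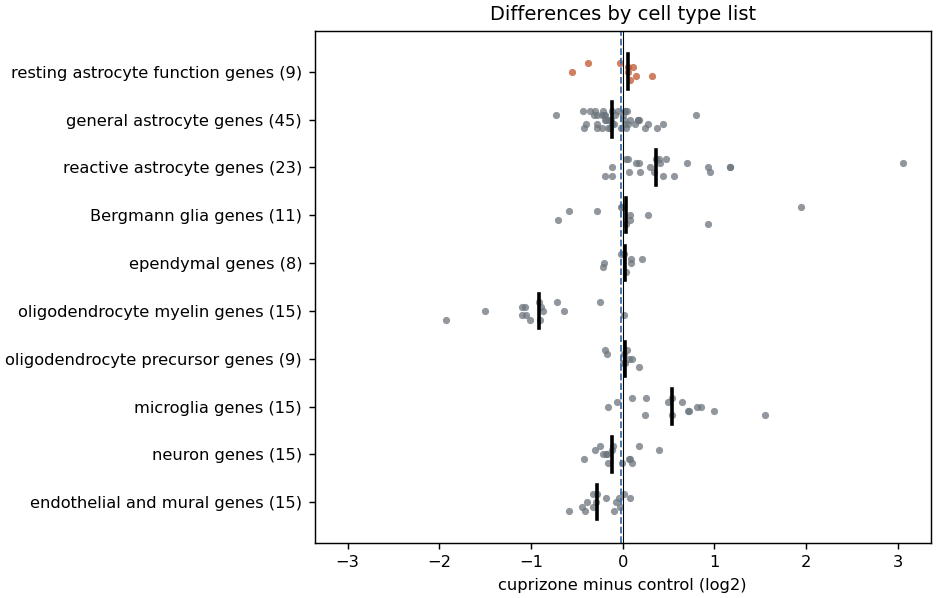
Log2 differences, cuprizone minus control, of the measured genes of each list (dots, number in brackets) with the list median (bar) and the median of all measured genes (dashed line at -0.01). The 9 resting astrocyte function genes have a median of 0.06, between the general list at -0.12 and the reactive list at 0.37; myelin genes lie left at -0.91 and microglia genes right at 0.53.

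Markers of other cells differed between the arrays as well. Of 15 measured microglia genes 13 were higher, with a median of 0.53, and their summed signal went from 1037 to 1622. Higher by at least 25% were 10, where 7.83% of measured genes were. Cd68, a phagocyte protein, read 5.79 and 7.34. Of 15 neuron genes 10 were lower and 5 higher, with a median of -0.12 and a summed signal of 4254 and 4207. Genes of ependymal cells, which also express Sox9 and Aqp4, had a median of 0.03 over 8 measured genes. Their summed signals, over all 12 listed genes, were 311 and 315. Oligodendrocyte precursor genes had a median of 0.02 over 9 measured genes and summed signals of 489 and 487 over all 10 listed. No marker was at a true 0, since RMA gives every probe set a level. The part of these markers in the values of the 9 genes was not tested.

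The direction of the small differences depended on how the arrays were scaled. With centring on the median, removal of the level-dependent trend or quantile normalization, Slc7a10 ran from -0.55 to -0.52, Acsbg1 from -0.38 to -0.35 and Gpr37l1 from 0.32 to 0.35, and Ntsr2 crossed 0, from -0.02 to 0.01. Control RNAs added during the assay read higher on the cuprizone array, by a median of 0.26 for the 18 hybridization controls and 0.38 for the 39 poly-A controls, though single controls ran from -0.59 to 1.01 and from -0.23 to 1.30. Scaling on the former put 8 of the 9 genes lower on the cuprizone array, Gpr37l1 at 0.05 being the exception. Scaling on the latter put all 9 lower, from -0.93 for Slc7a10 to -0.06 for Gpr37l1. Slc7a10 and Acsbg1 were lower under each of the 6 scalings tried, but most of these scalings are no check on that. Scaling on added controls subtracts a positive constant, so a gene already below 0 could only go lower. Median centring shifts every gene by the same small constant. Trend removal and quantile normalization could have moved these genes apart from the rest, and under both they stayed lower. Statements that the other 7 were level or higher hold relative to the bulk of genes and not relative to the added controls.

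**Figure D5:**
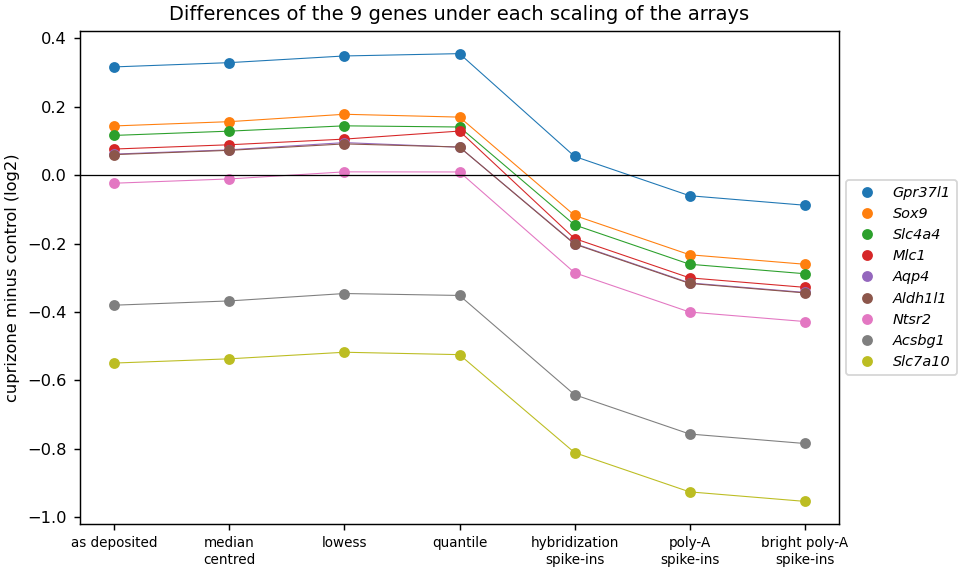
Log2 difference, cuprizone minus control, of the 9 genes as deposited and under 6 other scalings of the arrays. Each gene is 1 colour, and the points of Aqp4 and Aldh1l1 overlap. The order of the genes barely changes, and Slc7a10 and Acsbg1 stay below 0. The spike-in scalings move the whole set down by a constant of 0.26 to 0.40, so they could change neither of these outcomes.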

How the data were processed

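RNA of 2 mouse brain samples, 1 labelled control and 1 cuprizone, was hybridised to the Mouse Gene 2.0 ST array. The deposited values are log2 expression levels, 1 for each probe set. Per the submitters' processing notes the tools were Affymetrix Power Tools and RMA, with no version stated. RMA makes the signal distributions of the arrays alike, so a shift of total RNA is removed. Both deposited tables agree to 5e-05.

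Genes were named by the table's symbols, with the probe set of the highest mean where a gene had several (657 genes). Differences are cuprizone minus control, with no further centring. Values within the receptor background were raised to its upper end for lower bounds, written "at least". Similar level means a mean within 0.5. Summaries used Python 3.11.15, pandas 2.3.3 and statsmodels 0.14.6 (lowess span 0.2) and were checked on simulated data. With 1 array per group no test was run. The 9 genes and 19 lists were chosen with earlier results of these data known. Named genes were the 9, the 3 genes of each list above background with the largest absolute difference (6 for general and reactive astrocytes), and a fixed set of family members; others, such as relatives with small values, were named after values were seen, and some genes the rule names are not reported here. Alternatives covered 6 scalings (1 added after seeing the data), the other table, the probe set rule and 3 level filters. Sequences are RefSeq's.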

Additional observations from a re-analysis of the deposited data

How the results depend on the processing

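With 1 array per group no error was available, and a value was taken to have moved when it changed by 0.1 or more on the log2 scale, or a count by over 1.5 times. Each of the 9 gene differences stayed within that under median centring, trend removal and quantile normalization. The other table, both probe set rules and the 3 level filters could not change these differences, so they are no check on them. Both tables hold the same values, and each of the 9 genes has 1 probe set that passes every filter. Scaling on hybridization controls gave medians of -0.20 for the 9 genes, -0.38 for general astrocyte genes, 0.11 for reactive astrocyte genes and -0.28 for all genes of the related lists together, with 8 of 9 genes lower. Scaling on poly-A controls gave -0.32, -0.49, -0.0096 and -0.39, with 9 of 9 lower. Scaling on the 22 poly-A controls above background, added after seeing the data, gave -0.34, -0.52, -0.037 and -0.42, with 9 lower and 6 lower by at least 20%. The reactive list thus turned sign under both poly-A scalings, as did the amino acid transporter and serine list (-0.035 and -0.063); these shifts follow from subtracting a constant. The 75th percentile filter left 5 reactive genes with a median of 1.17. At 1.5-fold and at 2-fold, 0 of the 9 genes were lower. The mean of the 9 was -0.02 where the median was 0.06. No paired analysis was possible because each group has 1 array.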
